A study of Rattus norvegicus with 6 samples.

Results

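The collagen genes and the genes for collagen crosslinking and folding were followed in cultured rat oligodendrocyte precursor cells (OPCs), the glial progenitors that give rise to the myelin-forming cells of the brain. Members were taken by name from the deposited gene table: every collagen chain (Col, a number, a and a number), the lysyl oxidases (Lox and the Loxl genes), the prolyl hydroxylase subunits (P4ha genes), the lysyl hydroxylases (Plod genes), the collagen chaperone Serpinh1 and the collagen-binding glycoprotein Sparc. This rule gave 56 of the 32883 rows, 43 of them collagen chains. The cells came from cortices of Sprague Dawley rats at postnatal day 0, 2 to a preparation, were grown for 7 days in serum-containing medium and shaken off, and were then kept in Neurobasal with B27 and N2. The 3 libraries of the ZJU-37 group came from cells given 5 μM ZJU-37, an inhibitor of the kinase RIPK1, and the 3 libraries of the DMSO group from cells given an equal volume of the solvent. The labels give 36 h of treatment for both groups, and poly(A)-selected RNA was sequenced. The labels do not say whether the 3 libraries of a group came from separate preparations. The study's Methods call them biological repeats, while a figure legend counts plate wells. The p-values therefore measure the spread between these libraries, which may be technical.

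Collagens are secreted as trimers of chains that share a long repeat built on glycine and rich in proline. Prolyl and lysyl hydroxylases modify the chains in the endoplasmic reticulum, Serpinh1 (HSP47) holds the folded trimer during export, and lysyl oxidases crosslink the fibrils outside the cell. Types I, II, III, V and XI form fibrils, type IV forms the mesh of basement membranes, and fibril-associated chains such as those of types IX and XII sit on the fibril surface. The normal brain parenchyma holds little fibrillar collagen, which is found mainly in the meninges and around vessels, and Sparc is made by several kinds of glia.

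Total counts ranged from 13935865 to 18754529 per library with DMSO and from 17769843 to 24097927 with ZJU-37. In CPM (counts scaled to a common library size), 3 reads weighed from 0.124 (ZJU-37 library 3) to 0.219 (DMSO library 1). The members took 0.200 to 0.263% of all counts. Transcripts of OPC markers summed to between 4426 and 5168 CPM with DMSO and between 4613 and 6361 CPM with ZJU-37. Within that sum Pdgfra (394 to 843 CPM on average), Cspg4, Olig1 and Ptprz1 were higher in every ZJU-37 library. Gpr17 (357 to 33.1 CPM), Nkx2-2, Vcan and Sox10 were lower in every ZJU-37 library, and Olig2 overlapped. Markers of mature oligodendrocytes were at 11417 to 22747 CPM with DMSO and at 4818 to 10070 CPM with ZJU-37, without overlap. Those of microglia were at 2395 to 4128 and 1731 to 3620 CPM, and those of astrocytes at 988 to 1603 and 856 to 1298 CPM. In bulk RNA such as this, fewer cells of a type and less RNA per cell cannot be told apart.

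Promoters of 6 members are shown because these belong to the chains with the clearest differences or to the pair of type IV genes. The windows run from 250 bases before to 50 bases after the RefSeq gene start on assembly GRCr8, and are written 5′ to 3′ on the gene's own strand. Capitals mark the letters CCAAT and GGGCGG on either strand, so that a match on the other strand reads ATTGG or CCGCCC. The first 2 windows are Col4a1 (chr16:84885347-84885646, plus strand) and Col4a2 (chr16:84885471-84885770, minus strand), which face away from each other.
Col4a1: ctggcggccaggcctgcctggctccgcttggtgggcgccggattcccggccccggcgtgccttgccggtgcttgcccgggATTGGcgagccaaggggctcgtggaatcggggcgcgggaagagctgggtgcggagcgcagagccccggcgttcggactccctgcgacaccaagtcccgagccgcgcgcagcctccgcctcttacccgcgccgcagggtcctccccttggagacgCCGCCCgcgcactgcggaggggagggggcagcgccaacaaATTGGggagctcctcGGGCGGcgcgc
Col4a2: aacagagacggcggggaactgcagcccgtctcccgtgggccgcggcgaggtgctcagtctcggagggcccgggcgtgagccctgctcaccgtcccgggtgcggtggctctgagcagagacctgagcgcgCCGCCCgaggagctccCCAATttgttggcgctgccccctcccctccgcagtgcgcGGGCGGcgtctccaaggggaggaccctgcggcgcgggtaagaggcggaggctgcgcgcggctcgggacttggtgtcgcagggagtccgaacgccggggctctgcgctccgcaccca
The RefSeq starts of Col4a1 and Col4a2 are 77 bases apart, and 176 bases belong to both windows, so these are largely 1 stretch read in opposite directions. In the deposited table the spans of the pair lie on opposite strands of the same chromosome with 83601 bases between them, on a build that the sources used here do not name.

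The next windows belong to the fibrillar chains Col5a3 (chr8:27625899-27626198, minus strand), Col11a1 (chr2:204508886-204509185, plus strand) and Col11a2 (chr20:4817599-4817898, minus strand), and to the fibril-associated chain Col9a1 (chr9:34081114-34081413, plus strand).
Col5a3: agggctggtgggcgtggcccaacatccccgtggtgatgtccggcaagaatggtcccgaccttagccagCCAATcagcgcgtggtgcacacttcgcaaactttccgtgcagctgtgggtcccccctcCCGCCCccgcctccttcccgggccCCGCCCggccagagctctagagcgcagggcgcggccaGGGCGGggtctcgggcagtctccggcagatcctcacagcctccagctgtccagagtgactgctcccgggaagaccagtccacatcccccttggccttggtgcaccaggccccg
Col11a1: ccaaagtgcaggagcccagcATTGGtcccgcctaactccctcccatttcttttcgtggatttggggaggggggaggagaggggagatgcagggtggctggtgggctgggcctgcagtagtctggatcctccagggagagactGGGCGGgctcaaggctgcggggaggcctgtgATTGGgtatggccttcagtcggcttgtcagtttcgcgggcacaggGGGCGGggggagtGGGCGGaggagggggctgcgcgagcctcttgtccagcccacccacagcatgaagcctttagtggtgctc
Col11a2: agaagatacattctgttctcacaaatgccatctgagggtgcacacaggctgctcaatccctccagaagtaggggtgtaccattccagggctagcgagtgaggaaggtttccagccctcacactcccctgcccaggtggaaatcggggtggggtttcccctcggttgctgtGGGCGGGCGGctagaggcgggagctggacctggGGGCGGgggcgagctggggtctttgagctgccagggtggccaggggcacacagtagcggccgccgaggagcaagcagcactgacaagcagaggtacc
Col9a1: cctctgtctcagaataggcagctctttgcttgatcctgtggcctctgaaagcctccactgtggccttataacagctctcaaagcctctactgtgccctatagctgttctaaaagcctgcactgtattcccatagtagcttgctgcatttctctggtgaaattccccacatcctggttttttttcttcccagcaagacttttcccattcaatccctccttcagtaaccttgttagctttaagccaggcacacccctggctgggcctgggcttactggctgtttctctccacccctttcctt
The Col5a3 window holds 1 CCAAT and 3 GGGCGG matches, and the Col11a1 window holds 2 and 3. The Col11a2 window has no CCAAT and 3 GGGCGG matches, of which the first 2 overlap each other, and the Col9a1 window has neither. G and C make up 75.0% of the Col4a1 window, 69.0% of that of Col5a3, 64.7% of that of Col11a1, 62.7% of that of Col11a2 and 49.3% of that of Col9a1. The letters TATAAA and AACAAT, the core of a site for SOX factors, were searched on both strands as well and are in none of these 6 windows. Among all 33469 RefSeq windows of this length, 37.5% hold CCAAT, 33.1% GGGCGG, 14.2% TATAAA and 11.7% AACAAT. Windows matched 45 of the 56 members, of which 12 hold CCAAT, 27 GGGCGG, 4 TATAAA and 2 AACAAT. These matches describe letters, and no binding was measured.

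Of the 56 members, 44 had enough counts to be tested and 12 did not. By the quasi-likelihood test of edgeR, with p adjusted by Benjamini-Hochberg over all 14670 tested genes (threshold 0.05), 1 member was higher and 8 were lower with ZJU-37. Over all tested genes 9.43% were called higher and 5.58% lower (15.0% in either direction), against 2.27% and 18.2% of the tested members. Among these 44, Col9a1, Col8a2 and Col6a5 reached the count minimum in all 3 libraries of the DMSO group only, and Col9a1 and Col6a5 are among the 8 that were called lower. The replicate numbers of the labels paired libraries across the groups, and a fit with that number as a block called 3 members higher and 14 lower, where 16.2% and 15.9% of all tested genes were called (32.1% in either direction). The log2 fold change was below 0 in 35 tested members and above 0 in 9, with a median of -0.23 against -0.03 over all tested genes. In 3 tested members every ZJU-37 library lay above every DMSO library and in 9 below, while 19.0% and 16.2% of all tested genes were separated in this way.

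**Figure D1:**
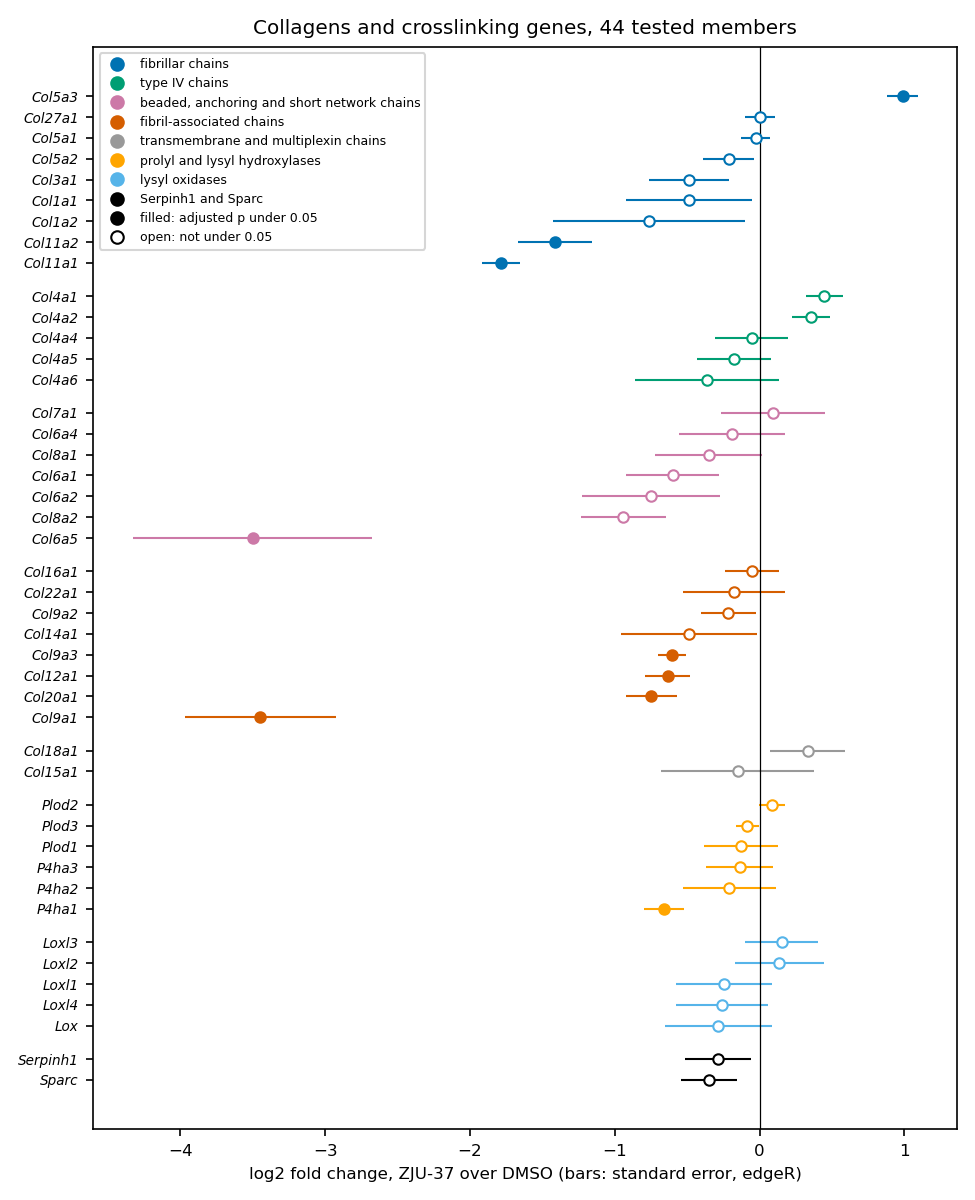
Log2 fold change (ZJU-37 over DMSO, x axis) with its standard error for the 44 tested members, grouped by role, filled where the adjusted p was under 0.05 without the replicate block. Col5a3 at 0.99 is the 1 filled point above 0, and the filled points below 0 reach -3.50.

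The plot of fold changes by role shows where the calls fell. Among the 9 tested fibrillar chains 1 was higher and 2 were lower, and among the 8 tested fibril-associated chains 4 were lower. Lower too were 1 of 7 beaded, anchoring and short network chains and 1 of 6 hydroxylases. The shares over all tested genes were 9.43% higher and 5.58% lower. None of the 5 type IV chains, the 5 lysyl oxidases, the pair Serpinh1 and Sparc or the 2 tested transmembrane and multiplexin chains was called. At an unadjusted p under 0.05 in edgeR these 4 groups had 2, 0, 0 and 0 members, and DESeq2 called 1, 0, 0 and 0. For comparison, 4205 of all 14670 tested genes had an unadjusted p under 0.05, and DESeq2 called 2588 of 15082. With the replicate block edgeR called 2 type IV chains higher (Col4a1 and Col4a2), Serpinh1 and Sparc lower, and no member of the other 2 groups.

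Col5a3, a minor fibrillar chain of type V collagen, was the one member that rose without the block. With DMSO its libraries 1, 2 and 3 gave 269, 235 and 295 CPM, and with ZJU-37 they gave 516, 493 and 576 CPM. Every ZJU-37 library was above every DMSO library, and the differences between same-numbered libraries were 0.94, 1.07 and 0.96 on the log2 scale. The mean went from 266 ± 30.0 CPM (SD, n = 3) to 528 ± 42.7 CPM, a 1.98-fold rise (log2 fold change 0.99, SE 0.11, edgeR adjusted p = 0.00145). In the table Col5a3 lies at chr8:21786324-21831668 on the minus strand, and its promoter window, with 1 CCAAT and 3 GGGCGG, is printed above.

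Col11a1, a chain of type XI collagen that in cartilage sits inside the fibril and limits its width, fell. It stood at 140, 115 and 128 CPM with DMSO and at 42.8, 31.1 and 37.1 CPM with ZJU-37. The highest treated library was well under the lowest control library. The means were 128 ± 12.2 and 37.0 ± 5.84 CPM (SD, n = 3), a 3.45-fold lower level (log2 fold change -1.79, SE 0.13, edgeR adjusted p = 4.36e-04). Its span in the table is chr2:216863428-217056523 on the plus strand.

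Col11a2, the partner chain of Col11a1 in type XI trimers, fell as well. Its values were 26.1, 18.4 and 14.2 CPM with DMSO against 8.70, 7.42 and 5.91 CPM with ZJU-37. The groups did not overlap, although the control libraries spread over a wide range. The mean was 2.66-fold lower (19.6 ± 6.01 against 7.35 ± 1.40 CPM, SD, n = 3), with a log2 fold change of -1.41 (SE 0.25, edgeR adjusted p = 0.0128). The calls of Col5a3, Col11a1 and Col11a2 held without any single library, with edgeR adjusted p of at most 0.00847, 0.00428 and 0.0476.

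The other type V chains were not called without the block. Col5a1, which most type V trimers contain, was at 63.0, 60.0 and 69.2 CPM with DMSO and 56.7, 61.2 and 70.6 CPM with ZJU-37 (log2 fold change -0.03, SE 0.10, edgeR adjusted p = 0.888). Col5a2 was at 55.5, 62.0 and 77.3 CPM against 44.5, 58.6 and 65.0 CPM (log2 fold change -0.21, SE 0.17, edgeR adjusted p = 0.497). The ranges of both genes overlapped between the groups, and Col5a2 was called lower with the replicate block only (edgeR adjusted p = 0.0317).

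Type V and type XI chains can assemble with each other, so their levels were also set against their sum, in FPKM, the deposited measure that corrects for transcript length. Col5a3 made up 50.01, 48.7 and 51.0% of the summed FPKM of Col5a1, Col5a2, Col5a3, Col11a1 and Col11a2 in the DMSO libraries, and 76.9, 74.6 and 75.3% in the ZJU-37 libraries. Col11a1 went from 20.5, 18.8 and 17.4% to 5.03, 3.72 and 3.83%. The ratio of Col5a3 to Col11a1 was between 2.44 and 2.93 in control libraries and between 15.3 and 20.1 in treated ones. Of the summed FPKM of all collagen chains, Col5a3 took 17.8% ± 0.156 (SD, n = 3) with DMSO and 32.4% ± 0.595 with ZJU-37. That total itself overlapped between the groups, at 249, 216 and 273 FPKM with DMSO and 259, 248 and 294 FPKM with ZJU-37. These shares use the values that called the chains and are given as a description.

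**Figure D2:**
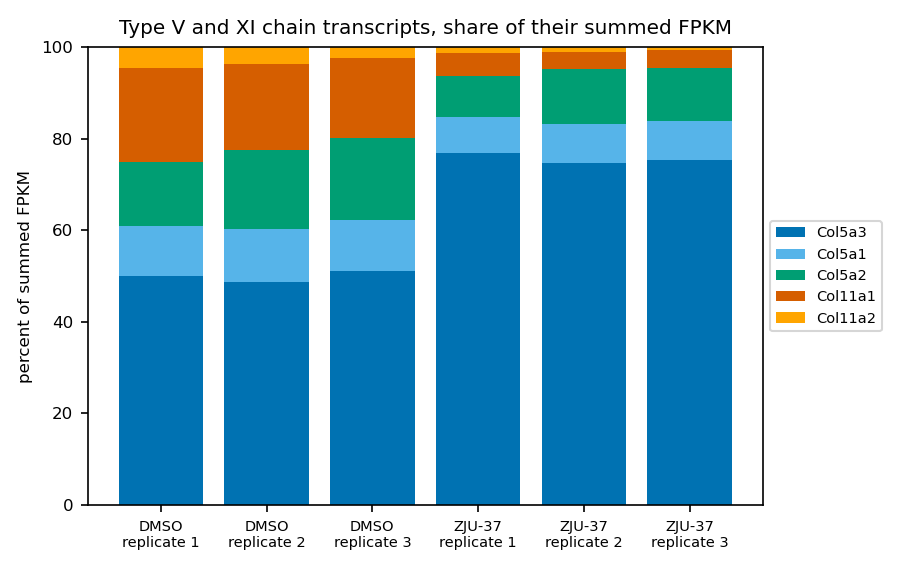
Share of the summed FPKM of the type V and type XI chains taken by each of the 5 chains, in percent, as 1 stacked bar for each of the 6 libraries. The Col5a3 segment spans 48.7 to 51.0% with DMSO and 74.6 to 76.9% with ZJU-37.

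The interstitial fibrillar chains were lower on average with ZJU-37, but their libraries overlapped. Col1a1 and Col1a2, the chains of type I collagen, the main fibril of skin, bone and meninges, were uneven within each group. Col1a1 was at 36.6, 27.9 and 61.1 CPM with DMSO and at 16.5, 25.9 and 46.9 CPM with ZJU-37, and replicate 3 was the highest of both groups. Col1a2 ranged from 5.20 to 29.5 CPM with DMSO and from 4.92 to 15.3 CPM with ZJU-37, again with replicate 3 highest in each. Neither was called (log2 fold changes -0.49 and -0.76, SE 0.44 and 0.66, edgeR adjusted p = 0.536 and 0.523), nor with the block (edgeR adjusted p = 0.223 and 0.484).

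Col3a1, the type III chain found with type I in soft tissue, was at 27.8, 28.3 and 35.2 CPM with DMSO and at 14.1, 20.03 and 30.8 CPM with ZJU-37. The groups overlapped through replicate 3 of the ZJU-37 group. Its log2 fold change of -0.49 (SE 0.28) was not called without the block (edgeR adjusted p = 0.319) and was called with it (edgeR adjusted p = 0.0383). Col27a1 was at 20.7 to 24.9 CPM over all 6 libraries (edgeR adjusted p = 0.993). Col2a1, the cartilage chain, and Col24a1 had at most 16 counts in any library and were not tested.

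**Figure D3:**
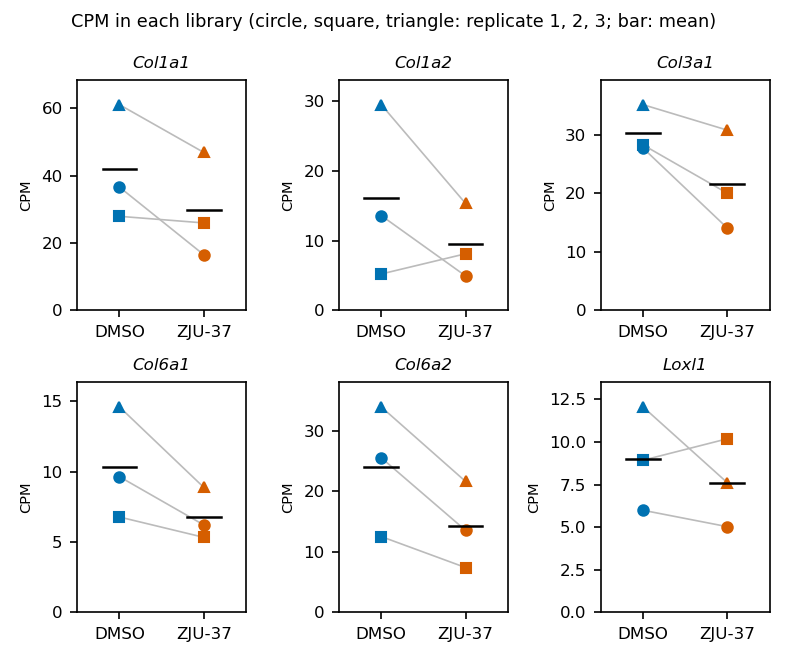
CPM of interstitial chains Col1a1, Col1a2, Col3a1, Col6a1 and Col6a2 and of the lysyl oxidase Loxl1 in each library (marker shape gives the replicate number, horizontal bars the group mean). For the 5 collagen chains replicate 3 is the highest library of both groups.

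Markers of fibroblasts and mural cells, which make types I, III and VI in many tissues, were present at low levels. Their sum over 10 genes was 46.7 to 62.0 CPM with DMSO and 27.1 to 44.6 CPM with ZJU-37, without overlap. Without Tagln, a choice made after its values were seen, the other 9 summed to 16.8, 19.6 and 28.9 CPM with DMSO and to 15.0, 18.1 and 24.8 CPM with ZJU-37, which overlapped. Of the 8 that could be tested, Tagln, the smooth muscle protein transgelin, was called lower (30.5 to 15.9 CPM, log2 fold change -0.93, edgeR adjusted p = 0.0170), and none was called higher without the block. With the block 2 were lower and 1 was higher, the smooth muscle myosin Myh11 (3.65 to 5.87 CPM, log2 fold change 0.69, edgeR adjusted p = 0.0104, and 0.111 without the block). Of all tested genes 5.58% were called lower and 9.43% higher without the block, and 15.9% and 16.2% with it. Lum, a proteoglycan that binds type I fibrils, was at 4.16, 3.45 and 7.01 CPM with DMSO and at 2.43, 1.94 and 5.87 CPM with ZJU-37, so replicate 3 was high for it in both groups too. Sparc and the astrocyte markers Gfap and Aqp4 were also highest in replicate 3 of both groups, while Myh11 was highest in replicate 1 of both. Dcn was at 0.270 to 0.690 CPM, and Rgs5, a pericyte marker, had no counts with DMSO. The part of these markers in the values of the interstitial chains was not tested.

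The basement membrane pair Col4a1 and Col4a2, whose promoter windows printed above overlap and whose products form the commonest type IV trimer, was higher in every ZJU-37 library. Col4a1 was at 232, 225 and 288 CPM with DMSO and 301, 331 and 384 CPM with ZJU-37. Col4a2 was at 86.9, 73.3 and 93.7 CPM against 95.9, 103 and 126 CPM. The treated libraries lay above the controls for both genes, though the nearest libraries were close. Neither passed without the block (log2 fold change 0.45, SE 0.13, edgeR adjusted p = 0.0652 for Col4a1, and 0.36, SE 0.13, edgeR adjusted p = 0.130 for Col4a2). With the replicate block both were called higher (edgeR adjusted p = 2.03e-04 and 0.00500). Col4a1 was also called without DMSO replicate 3 (edgeR adjusted p = 0.0414) and by DESeq2 (adjusted p = 0.0159).

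The ratio of Col4a1 to Col4a2 in FPKM was between 2.01 and 2.42 in the 6 libraries. Together they took 22.2% ± 1.001 (SD, n = 3) of the summed collagen FPKM with DMSO and 27.2% ± 1.70 with ZJU-37. The other type IV chains were far lower. Col4a5 and Col4a6, which pair with each other, had mean levels of 8.54 and 1.57 CPM with DMSO and 7.60 and 1.22 CPM with ZJU-37, and neither was called (edgeR adjusted p = 0.714 and 0.690). Col4a4 was at 0.824 to 1.14 CPM (edgeR adjusted p = 0.918), and its partner Col4a3 had 1 to 6 counts per library and was not tested. Of 8 endothelial markers, 7 are in the table and summed to 16.4 to 19.3 CPM with DMSO and 12.3 to 15.9 CPM with ZJU-37, without overlap. Most of that sum was Cdh5, the endothelial cadherin, at 12.6, 13.7 and 16.2 CPM with DMSO and 8.98, 11.1 and 12.6 CPM with ZJU-37 (edgeR adjusted p = 0.189, and 0.0192 with the block). Egfl7 was higher in every ZJU-37 library (means 0.668 to 1.25 CPM, log2 fold change 0.89, edgeR adjusted p = 0.167). Kdr was lower in each, at 12 counts or fewer in any library, and was not tested. Tek and Flt1 overlapped between the groups, while Cldn5 and Emcn had 0 counts in all 6 libraries. The part of these markers in the type IV values was not tested.

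**Figure D4:**
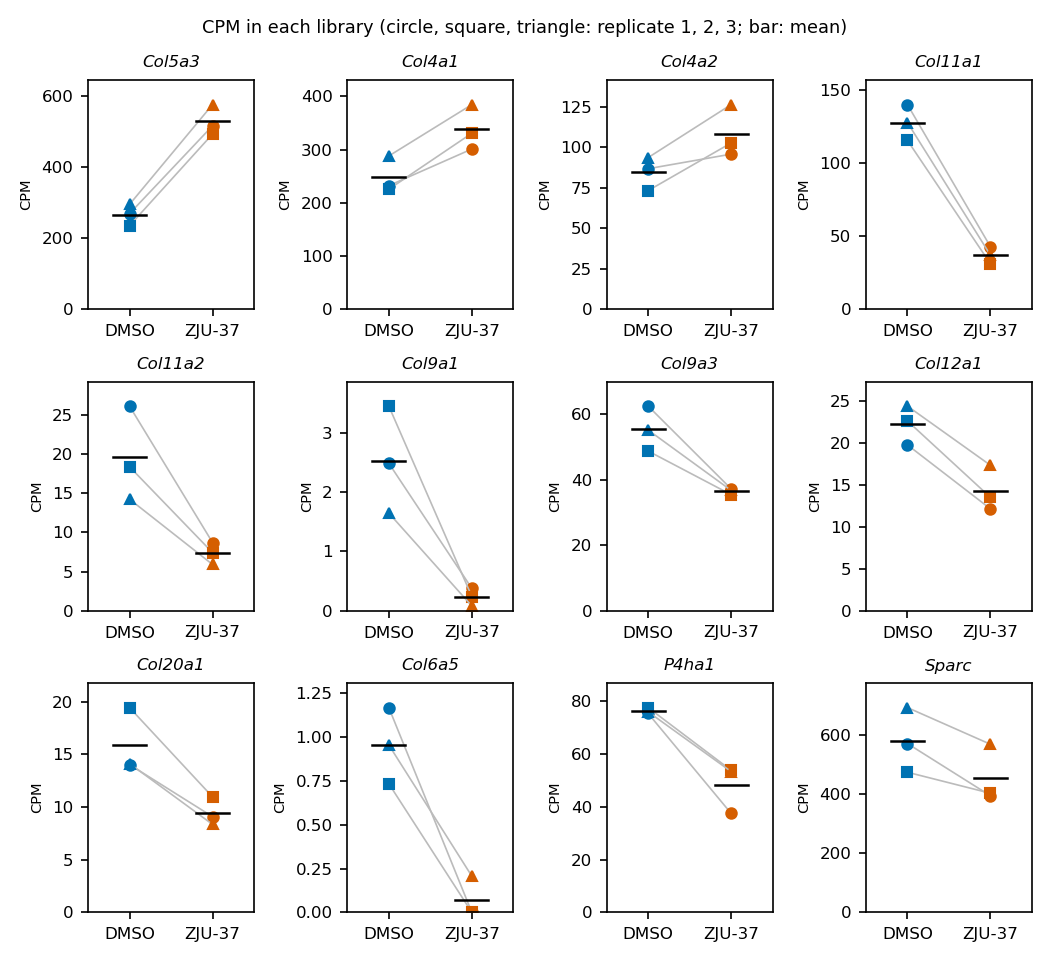
CPM of 12 members in each library (marker shape gives the replicate number, grey lines join equal numbers, horizontal bars the group mean, each panel with its own axis). Every ZJU-37 library lies above the DMSO libraries for Col5a3, Col4a1 and Col4a2, and below them for the other genes shown except Sparc.

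Fibril-associated chains gave 4 of the 8 lower calls. Type IX collagen, which coats type II fibrils in cartilage, is built from Col9a1, Col9a2 and Col9a3, and these differed in level and in change. Col9a3 was at 62.5, 48.8 and 55.2 CPM with DMSO and 37.2, 35.4 and 36.7 CPM with ZJU-37. The treated libraries were tightly grouped and all lower (55.5 ± 6.86 against 36.5 ± 0.907 CPM, SD, n = 3, log2 fold change -0.60, SE 0.10, edgeR adjusted p = 0.00797).

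Col9a1 had 34, 61 and 31 counts in the DMSO libraries and 7, 5 and 2 in the ZJU-37 libraries, that is 1.65 to 3.45 CPM against 0.0827 to 0.378 CPM. The groups were far apart relative to their spread, but the treated values rest on few reads (log2 fold change -3.45, SE 0.52, edgeR adjusted p = 0.00595). Col9a2 was at 6.43, 7.23 and 6.85 CPM against 7.41, 4.99 and 5.29 CPM, which overlapped (log2 fold change -0.22, SE 0.19, edgeR adjusted p = 0.527). The calls of Col9a1 and Col9a3 held without any single library, with edgeR adjusted p of at most 0.0263 and 0.0361. The Col9a1 window printed above holds none of the 4 searched motifs.

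Col12a1, which sits on type I fibrils, was at 19.8, 22.7 and 24.4 CPM with DMSO and 12.2, 13.5 and 17.4 CPM with ZJU-37 (log2 fold change -0.63, SE 0.16, edgeR adjusted p = 0.0388). Col20a1, a related fibril-associated chain, was at 14.03, 19.4 and 14.1 CPM against 9.08, 11.0 and 8.35 CPM (log2 fold change -0.75, SE 0.18, edgeR adjusted p = 0.0343). Both were lower in every treated library. Each call was lost in 5 of the 6 fits that left out 1 library, with edgeR adjusted p up to 0.123 for Col12a1 and 0.133 for Col20a1. The exceptions were the fit without ZJU-37 replicate 3 for Col12a1 (edgeR adjusted p = 0.0279) and that without ZJU-37 replicate 2 for Col20a1 (edgeR adjusted p = 0.0494).

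The remaining fibril-associated chains were not called. Col16a1 was the most abundant of them, at 182, 130 and 153 CPM with DMSO and 186, 122 and 141 CPM with ZJU-37, and its groups overlapped (log2 fold change -0.05, SE 0.19, edgeR adjusted p = 0.892). Col14a1 and Col22a1 were at 5.02 and 1.898 CPM on average with DMSO, and Col19a1 had at most 5 counts in a library.

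Type VI collagen forms beaded filaments around cells, from Col6a1, Col6a2 and 1 further chain. Col6a2 was at 25.6, 12.5 and 34.0 CPM with DMSO and at 13.6, 7.42 and 21.7 CPM with ZJU-37. Col6a1 was at 9.64, 6.78 and 14.6 CPM against 6.22, 5.33 and 8.89 CPM. In both genes each treated library was below the control library of its own number, while the groups overlapped. Without the block neither was called (log2 fold changes -0.75 and -0.60, SE 0.48 and 0.32, edgeR adjusted p = 0.370 and 0.286), and with it both were lower (edgeR adjusted p = 2.49e-04 and 0.00887).

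Col6a5, one of the alternatives for the further chain, had 16, 13 and 18 counts with DMSO and 0, 0 and 5 with ZJU-37, and was called lower (edgeR adjusted p = 0.0338). Its fitted log2 fold change of -3.50 (SE 0.83) rests on these few counts and ranged from -7.08 to -2.95 when 1 library was left out. The call was kept without ZJU-37 replicate 3 (edgeR adjusted p = 0.0155) and lost without any of the other libraries (up to 0.0950). Col8a2, a short network chain, was at 1.10, 1.36 and 1.27 CPM with DMSO and 0.487, 0.824 and 0.620 CPM with ZJU-37, with no overlap, but did not pass (log2 fold change -0.94, SE 0.29, edgeR adjusted p = 0.0811, and 0.0517 with the block). Its partner Col8a1 overlapped at 2.15 to 4.19 CPM and 1.41 to 3.06 CPM (edgeR adjusted p = 0.601). Col7a1, the anchoring fibril chain of skin, and Col6a4 were at most at 3.20 and 1.24 CPM and not called.

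Transmembrane chains and the multiplexins, a class of basement membrane proteins with a cleavable end, were at low levels. Col18a1, whose released fragment is endostatin, was at 5.77, 9.72 and 8.92 CPM with DMSO and 7.35, 11.98 and 11.4 CPM with ZJU-37 (log2 fold change 0.33, SE 0.26, edgeR adjusted p = 0.473, and 0.0508 with the block). Col15a1 was at 0.847 to 3.66 CPM (edgeR adjusted p = 0.886). Col13a1, Col17a1, Col23a1 and Col25a1 had 0 to 12 counts in a library and were not tested. The other untested members, Col6a6, Col10a1, Col26a1 and Col28a1, had 0 to 21 counts, and Col10a1 lies over Nt5dc1 on the opposite strand, which had 1689 counts in all against 30. Of the 12 untested members Col25a1 and Col28a1 had fewer CPM in every ZJU-37 library, at 7 counts or fewer in any library.

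P4ha1, the catalytic subunit of the main prolyl hydroxylase, was the one modifying enzyme of the list that was called. It was at 75.5, 77.7 and 76.1 CPM with DMSO and 37.5, 53.9 and 53.4 CPM with ZJU-37. The control libraries lay within a narrow range, all above the treated ones, of which replicate 1 was the lowest. The mean was 1.58-fold lower (76.4 ± 1.14 against 48.3 ± 9.31 CPM, SD, n = 3, log2 fold change -0.66, SE 0.14, edgeR adjusted p = 0.0221). The call was lost without DMSO replicate 1, 2 or 3 (edgeR adjusted p = 0.0662, 0.0791 and 0.0713) and kept without each ZJU-37 library.

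The other hydroxylases overlapped between groups. P4ha2 was at 12.8 to 20.4 CPM with DMSO and 8.38 to 19.1 CPM with ZJU-37 (log2 fold change -0.21, SE 0.32), and P4ha3 at 3.28 to 5.26 and 3.35 to 4.46 CPM (log2 fold change -0.14, SE 0.23). Of the lysyl hydroxylases, Plod1 was at 56.8 to 86.4 and 44.7 to 80.2 CPM (log2 fold change -0.13, SE 0.26), Plod2, which acts on the telopeptides, at 20.7 to 22.8 and 21.2 to 24.6 CPM (0.09, SE 0.09), and Plod3, which also adds glucose, at 75.0 to 77.0 and 64.2 to 77.6 CPM (-0.09, SE 0.08). Their edgeR adjusted p ranged from 0.544 to 0.792. Part of the Plod3 span overlaps Znhit1 on the other strand, which had 38.5% as many counts, and the strand setting of the counting is not given in the sources used here.

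The 5 lysyl oxidases, which form the aldehydes that crosslink collagen and elastin, were at low levels and none was called, with edgeR adjusted p from 0.654 to 0.815. Lox itself was at 5.33, 7.63 and 9.40 CPM with DMSO and 3.19, 7.76 and 7.40 CPM with ZJU-37 (log2 fold change -0.29, SE 0.37). Loxl1 was at 8.99 ± 3.03 against 7.61 ± 2.58 CPM (SD, n = 3), Loxl2 at 3.52 ± 0.856 against 3.87 ± 1.35, Loxl3 at 4.67 ± 0.982 against 5.18 ± 1.299, and Loxl4 at 0.939 ± 0.245 against 0.788 ± 0.165 CPM. All 5 overlapped between the groups. Standard errors of 0.25 to 0.37 on the log2 scale limit what could be detected here.

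Serpinh1, the chaperone specific to procollagen, was at 84.1, 109 and 125 CPM with DMSO and 62.7, 89.7 and 108 CPM with ZJU-37. Sparc, which binds fibrillar collagens and was the most abundant member per length (280 FPKM on average with DMSO and 219 FPKM with ZJU-37), was at 572, 475 and 693 CPM against 395, 403 and 569 CPM. For both genes each treated library was below the control library of the same number, and the groups overlapped. Neither was called without the block (log2 fold changes -0.29 and -0.35, SE 0.23 and 0.19, edgeR adjusted p = 0.476 and 0.302), and both were lower with it (edgeR adjusted p = 0.00380 and 0.00292).

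**Figure D5:**
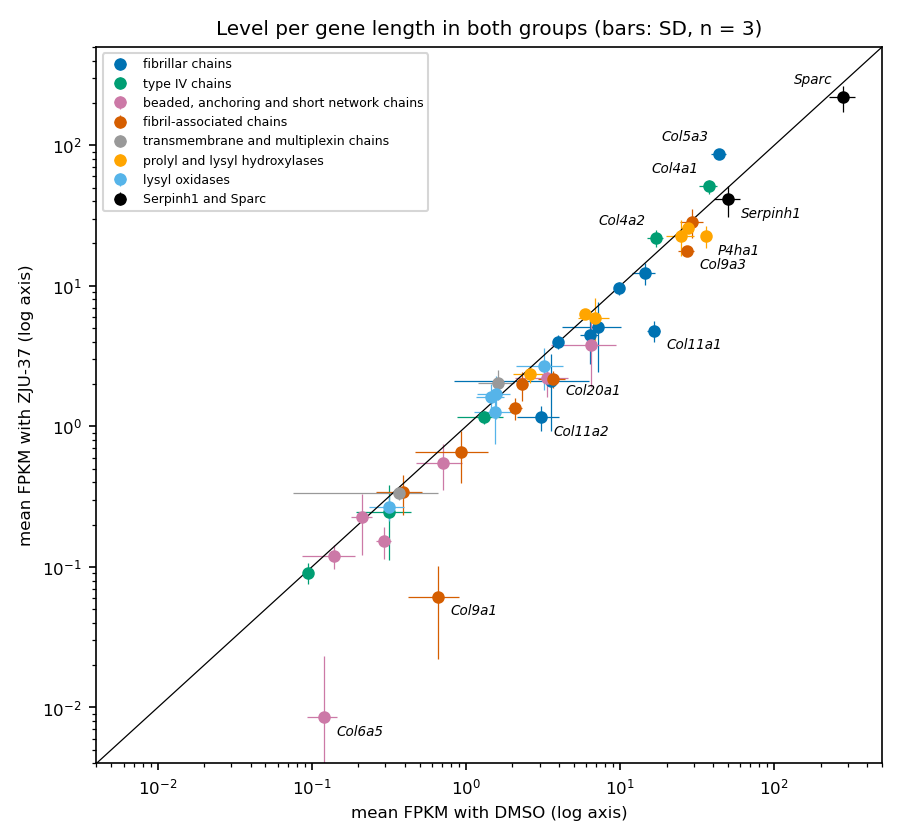
Mean FPKM of the 44 tested members with DMSO (x axis) and with ZJU-37 (y axis), both on log axes, coloured by role, with SD bars (n = 3) and the line of equal levels. Sparc is at the top at 280 and 219 FPKM, Col5a3 lies above the line, and Col11a1, Col9a1 and Col6a5 lie farthest below it.

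Per length, 12 members were over 10 FPKM on average over all libraries, 20 were between 1 and 10 FPKM and 24 were below 1 FPKM, as the plot of levels in both groups shows. Col5a3 had 43.8 FPKM with DMSO and 86.7 FPKM with ZJU-37, ahead of Serpinh1 at 50.4 and 41.1 FPKM, only in the treated group. Col4a1 was at 37.6 and 51.1 FPKM, P4ha1 at 35.8 and 22.6 FPKM and Col11a1 at 16.6 and 4.80 FPKM.

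Other genes of collagen production and recognition were taken from a list of 51, of which 48 were in the table and 44 could be tested. Of these 3 were higher and 3 lower with ZJU-37, or 6.82% in each direction, against 9.43% and 5.58% of all tested genes. With the replicate block 7 were higher and 14 lower (31.8% of the 44), against 16.2% and 15.9% of all tested genes. Among 15 genes of folding and modification 2 were lower, Colgalt2, which adds galactose to hydroxylysine (43.7 ± 3.00 to 28.3 ± 0.948 CPM, SD, n = 3, log2 fold change -0.63, edgeR adjusted p = 0.00243), and P3h1, which hydroxylates single prolines (35.9 ± 1.88 to 28.5 ± 2.26 CPM, -0.33, edgeR adjusted p = 0.0437). With the block 6 of the 15 were lower (40.0%) and none was higher. Those added were Ppib, Colgalt1, Fkbp14 and Slc39a13, with edgeR adjusted p from 0.00460 to 0.0260. P4hb, the partner of P4ha1 in the prolyl hydroxylase, was at 730 to 909 and 582 to 862 CPM and was not called (edgeR adjusted p = 0.649). None of 6 tested export genes and none of 7 propeptide-processing genes was called by edgeR without the block or by DESeq2. At an unadjusted p under 0.05 there were 0 and 2, against 4205 of all 14670 tested genes. With the block Sec23a and Sec24d of the export machinery and the propeptidase Adamts3 were lower (edgeR adjusted p = 0.0125, 0.0497 and 0.0144), and the propeptidases Bmp1 and Adamts14 were higher (0.0353 and 0.0312).

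Among 8 tested binding partners, Fbln1, a basement membrane glycoprotein, rose from 10.8 ± 0.235 to 16.4 ± 1.71 CPM (SD, n = 3, log2 fold change 0.60, edgeR adjusted p = 0.0141). Nid2, which links laminin to type IV collagen, fell from 24.2 ± 3.47 to 13.8 ± 0.749 CPM (-0.81, edgeR adjusted p = 0.00650). With the block Fbln1 stayed the 1 binding partner called higher, and 5 were lower (62.5%, against 15.9% of all tested genes). Those added were Lum, Bgn, Nid1 and Hspg2, with edgeR adjusted p from 0.0145 to 0.0458. Among 8 tested collagen receptors 2 were higher (25.0%, against 9.43% of all tested genes) and none was lower, and with the block 4 were higher, with Ddr1 and Adgrg6 added (edgeR adjusted p = 0.00960 and 0.0213). Ddr2, a receptor kinase for fibrillar collagen, was at 24.1, 26.5 and 27.1 CPM with DMSO and 41.7, 46.3 and 47.9 CPM with ZJU-37 (log2 fold change 0.81, edgeR adjusted p = 0.00138). Adgrg1 (GPR56), an adhesion receptor of OPCs that binds type III collagen, was at 282, 254 and 297 CPM against 574, 452 and 501 CPM (log2 fold change 0.87, edgeR adjusted p = 0.00259). Ddr2 and Adgrg1 were higher in every treated library than in any control library.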

How the data were processed

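RNA of OPCs was sequenced in 3 DMSO and 3 ZJU-37 libraries, and the authors deposited a single gene table with raw read counts and FPKM per library. The submitters' processing notes name HISAT2 2.0.5, StringTie 1.3.3b and featureCounts 1.5.0. The genome build is not given in the sources used here. Coordinates without a named build are the table's own. The table's 5 columns of the authors' own comparison (fold changes, p-values) were not used. The Methods of the study give a shorter treatment than the 36 h of the labels.

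The deposited counts were fitted in R 4.3.3 with edgeR 4.0.16 (TMM, filterByExpr, robust quasi-likelihood test, Benjamini-Hochberg over 14670 genes). CPM use TMM-scaled library sizes, and log2 CPM took a prior count of 2. DESeq2 1.42.0, limma 3.58.1 on voom weights or on log2 of the deposited FPKM plus 1 or 0.1, other size factors, filters, a replicate block and leaving out each library were alternatives. Each library's deviation from its group's mean correlated with that of the library of the same number at 0.39, 0.31 and 0.33, and with others at -0.27 to -0.01. The numbers of the labels were therefore taken as pairs in the fit with the block. The fit without the block used the group only, as the Methods of the study describe a comparison of 2 groups. No libraries were duplicates within sampling noise. The fits were tested on data simulated without a replicate effect, where false calls made up a larger share with the block than without it. Since libraries of equal number correlated here, that simulation cannot say how the block fit behaves on these libraries. The 3 counts taken as the floor cover counting error only.

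Members and lists were chosen with earlier results of these data known. Named are members called with or without the block, the 12 most abundant, all enzymes and partner chains, and, from the list of other genes, those called. Crtap and Hspg2 were matched through RefSeq synonyms. Members that matched no promoter window are not printed. Promoters are from RefSeq, GRCr8. Marker lists not described above gave these results: among 9 OPC markers 4 were higher and 4 lower, of 9 mature oligodendrocyte markers 2 were lower (6 by DESeq2 and at an unadjusted p under 0.05, 5 with the block), and of 7 tested astrocyte markers 1 was lower (1, 1 and 4). Of 11 microglia, 4 tested endothelial and 8 neuron markers none was called by edgeR without the block (0, 1 and 2 at an unadjusted p under 0.05, and 0, 0 and 1 by DESeq2), and with it 4, 1 and 4 were lower. The shares of all tested genes were 9.43% higher and 5.58% lower without the block, and 16.2% and 15.9% with it. An unadjusted p under 0.05 was found for 4205 of 14670 genes, and DESeq2 called 2588 of 15082. Neuron markers summed to 212 to 359 CPM with DMSO and 181 to 263 CPM with ZJU-37.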

Additional observations from a re-analysis of the deposited data

How the results depend on the processing

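With the replicate block 4705 genes passed, and 3 members were higher and 14 lower. The 8 added members are Col4a1 and Col4a2 (higher) and Col3a1, Col5a2, Col6a1, Col6a2, Serpinh1 and Sparc (lower), and the block removed no member call. DESeq2 called 2 members higher, and limma on log2(FPKM + 1) called 5 lower. Leaving out 1 library gave 1306 to 1927 genes, 1 to 2 members higher and 4 to 7 lower. Col5a3, Col11a1, Col11a2 and Col9a3 were called in every alternative. Col9a1 and Col6a5 were removed where 10 counts were asked of every library, which left 6 members lower. Of the values of the named members under the alternatives, 501 of 552 kept their direction and side of the threshold, 23 lost the call, 10 gained it and 18 changed sign. The cause was not tested.

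The signs that changed belong to members that were not called. Leaving out 1 library, the log2 fold change ranged from -0.22 to 0.11 for Col16a1, -0.05 to 0.30 for Loxl3, -0.10 to 0.06 for Col5a1, -0.49 to 0.03 for Loxl1, -1.29 to 0.03 for Col1a2, -0.30 to 0.03 for P4ha3, -0.40 to 0.06 for Col4a5, -0.13 to 0.00 for Plod3, -0.29 to 0.11 for Plod1, -0.43 to 0.08 for P4ha2, -0.47 to 0.03 for Lox, -0.13 to 0.09 for Col4a4 and -0.15 to 0.36 for Loxl2. The median of the members stayed between -0.39 and -0.06. The 12 untested members had too few counts for a test, and Col9a1 and Col6a5 had at most 7 counts in any ZJU-37 library.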
